A study of Mus musculus with 4 samples.

Results

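The glycolysis and gluconeogenesis genes described here are 40 mouse genes that encode the enzymes of glucose breakdown and new glucose synthesis, mostly as families of isoenzymes, together with glucose and lactate transporters and kinases that control pyruvate use. They were chosen by name, as the probes of the array that carry these gene names or older synonyms of them. Of the 40 genes, 39 were found with 66 probes, among 27661 genes or transcripts on the array. Gapdh had no probe under its name.

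Total RNA was labelled with Cy3 and hybridised to 4 Agilent arrays, which give a brightness for each probe. The samples were 3 mouse neural progenitor cell (NPC) lines, called NS21, NS195R and NSEB5-2C, each derived from its own embryonic stem cell line and measured once, and a single sample called Mixture. NS21 and NSEB5-2C carry the strain label 129/Ola and NS195R carries 129/Sv. Mixture was made from Swiss Webster mice and pooled equal masses of RNA of heart, kidney, thymus, spleen, liver, lung and embryo at day 11, with neither skeletal muscle nor adult brain among the named tissues. Strain and cell type therefore cannot be told apart in a ratio to Mixture, and each line is a single culture as far as the labels say. Another label of the Mixture sample names an NPC line treated with doxycycline, but all 9 liver, 8 kidney and 7 lung markers tested were well above background in it. In a pool, less RNA per cell and fewer cells of a type cannot be told apart.

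In glycolysis, cells take up glucose, trap it as glucose 6-phosphate and split it to pyruvate, which is either reduced to lactate and exported or oxidised in mitochondria. Most steps can be run by several isoenzymes from separate genes, and which of them a tissue uses is part of its identity: muscle, liver, red cells and neurons each have their own set. Gluconeogenesis, a task of liver and kidney, runs the path backwards through enzymes that bypass the irreversible steps. Proliferating progenitor cells are known for a high use of glycolysis.

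Levels below are log2 of the background-subtracted brightness of 1 probe per gene minus the 75 percentile of its array, so 0 is that percentile and a difference of 1 is a doubling. They may be compared between arrays for a gene, not between genes. Between 23983 and 25690 of 43379 spots were well above background on the NPC arrays, against 26840 on the Mixture array. Neural progenitor markers were well above background for 12 of 17 (NS21), 16 (NS195R) and 14 (NSEB5-2C), against 15 in Mixture. All 39 measured glycolysis genes were well above background in Mixture, and so passed the filter on low values through it. On every array 32 of them were, called measured on every array below, while Slc2a2, Hk3, G6pc and Pck1 were not in any NPC line.

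Set against Mixture, the NPC lines had no signal well above background for several isoenzymes of liver, kidney and blood cells. Widely used forms of the late steps read above Mixture, Pgk1 2.01-fold, Pgam1 2.65-fold, Eno1 4.28-fold, Pkm2 5.40-fold and Ldha 1.29-fold. None of them passed the test. These folds include a general shift, a median log2 ratio of 0.71 over all genes measured on every array. Past the test were 5 lower genes, the glucose transporter Slc2a2, the hexokinase Hk3, the pyruvate dehydrogenase kinase Pdk4, the glucose 6-phosphatase G6pc and the carboxykinase Pck1 (limma across 19823 genes, Benjamini-Hochberg adjusted p under 0.05). These 5 are 12.8% of 39, beside 8.91% of all genes tested. All 39 were well above background in Mixture, which was not required of all genes. The shares set against Mixture here and below are therefore not like for like. Of the 5, 4 passed the filter through Mixture alone, and the spread behind their p-values is that of readings not well above background. With limma 0 glycolysis genes were called higher, where 0.938% of all genes were, and 2, Eno1 and Pkm2, had a higher level at an unadjusted p under 0.05, beside 15.6% of all genes. Lower at an unadjusted p under 0.05 were 8, beside 15.4% of all genes. With normexp background correction the calls were 2 higher and 8 lower of 39, beside 973 higher and 1987 lower of all 19824 genes tested there. Leaving out any line ended every call (0 and 0). Testing only genes measured on every array also gave 0 calls, but it leaves out Slc2a2, Hk3, G6pc and Pck1. Of the 5 genes only Pdk4 could be called there, so the loss of the others was fixed in advance. In that test 2 higher and 4 lower of 32 glycolysis genes had such an unadjusted p, without a share over all genes beside them.

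By size alone, 8 genes lay above Mixture in all 3 NPC lines, or 20.5%, against 43% of all genes tested, and 17 lay below it in all 3, or 43.6%, against 28.8%. These counts rest on the 1 probe kept per gene. On second probes, Aldoc in NS21 (-0.36) and Eno2 in NS195R (-0.03) lay below Mixture, and Pdk1 in NSEB5-2C (0.75) above it. The mean of the lines was at least 2-fold above Mixture for 8 genes (20.5%, against 33.2% of all genes) and at least 2-fold below for 17 (43.6%, against 27.9%). The median log2 ratio was -0.47 over the 39 genes and 0.44 over all genes tested. Over genes measured on every array it was -0.15 for the 32 and 0.71 for all 12729, a general shift that the ratios below include. Median scaling put the medians of the 39 and of all genes tested at 0.28 and 1.19, so single ratios near 0 have no settled sign.

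**Figure D1:**
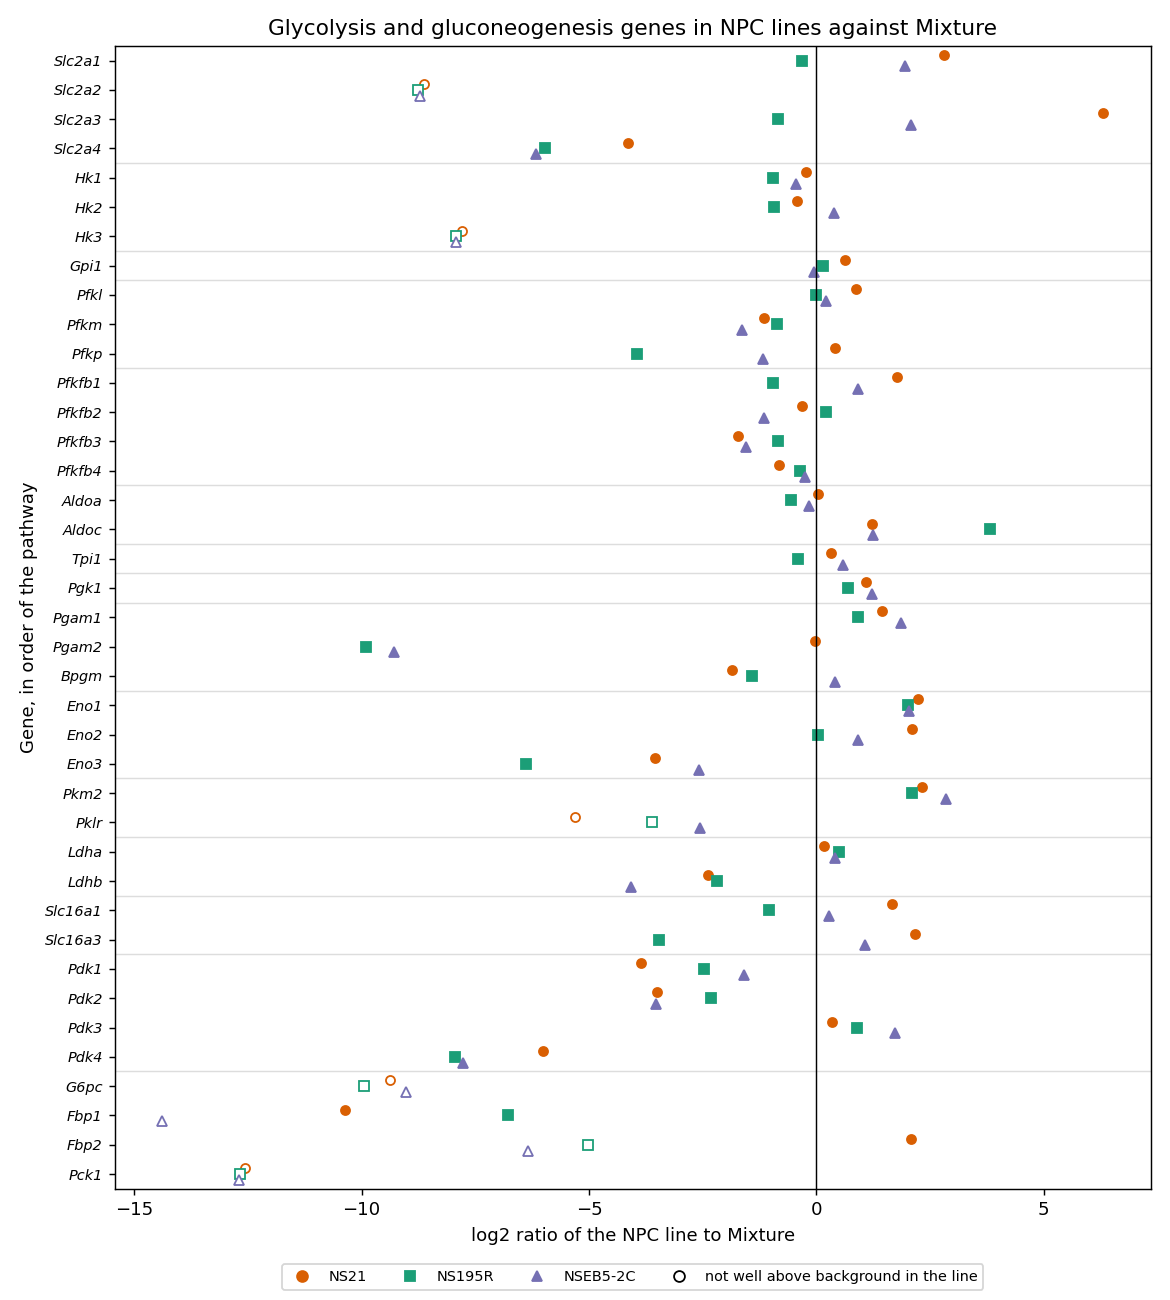
Log2 ratio of each NPC line to Mixture (horizontal axis) for the 39 measured glycolysis and gluconeogenesis genes, ordered by step. Circles are NS21, squares NS195R and triangles NSEB5-2C, and open symbols mark values not well above background. Pck1 lies at or below -12.56 in every line, while Eno1 and Pkm2 lie at or above 2.01 in every line.

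Glucose enters through transporters of the Slc2a family. Slc2a2, which encodes the GLUT2 of liver and pancreatic beta cells, read -7.02 (NS21), -7.15 (NS195R) and -7.12 (NSEB5-2C), none of them well above background, against 1.60 in Mixture. The lines thus lay at least 107-fold below Mixture (limma adjusted p = 0.00846). The insulin-responsive transporter of muscle and fat, Slc2a4 (GLUT4), had levels of -0.54 (NS21), -2.36 (NS195R) and -2.56 (NSEB5-2C), against 3.60 in Mixture. All 3 lines lay below Mixture, by 42.9-fold in the mean, without passing the test (log2 ratio -5.42, SE 1.05, limma adjusted p = 0.0790).

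The other transporters differed mainly between the lines. Slc2a1, the broadly expressed GLUT1, had levels of 5.19 (NS21), 2.09 (NS195R) and 4.35 (NSEB5-2C), against 2.39 in Mixture. NS195R was the line below Mixture, and the mean ratio was 1.48 with an SE of 1.47 (limma adjusted p = 0.554). Slc2a3, the high-affinity GLUT3 known from neurons, had 6.39 (NS21), -0.77 (NS195R) and 2.15 (NSEB5-2C), against 0.07 in Mixture. NS21 held 79.6-fold the level of Mixture while NS195R lay below it, so that the mean ratio of 2.52 had an SE of 3.24 (limma adjusted p = 0.649). Of 2 further Slc2a3 probes, 1 read between -7.48 and -7.27 on every array. The other was again highest in NS21, at -3.34, the 1 array where it was well above background, against -6.98 read in Mixture.

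Hexokinases trap glucose by phosphorylating it. Hk3, the form of blood cells, read -7.35 (NS21), -7.49 (NS195R) and -7.48 (NSEB5-2C), not well above background, against 0.44 in Mixture, and was at least 47.9-fold lower in the lines (limma adjusted p = 0.00846). Hk1, the main hexokinase of brain, had 3.84 (NS21), 3.11 (NS195R) and 3.62 (NSEB5-2C), against 4.07 in Mixture. Hk2, the form of muscle and of many dividing cells, had 2.12 (NS21), 1.62 (NS195R) and 2.94 (NSEB5-2C), against 2.54 in Mixture. Neither passed the test, and the mean ratios of -0.55 for Hk1 and -0.31 for Hk2 turned to 0.20 and 0.44 with median scaling. Gpi1, the isomerase of the next step, lay between 5.98 and 6.68 in the lines, against 6.04 in Mixture.

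Phosphofructokinase commits sugar to glycolysis and has a liver (Pfkl), a muscle (Pfkm) and a platelet (Pfkp) form. Pfkl had levels of 2.59 (NS21), 1.70 (NS195R) and 1.92 (NSEB5-2C), against 1.71 in Mixture. Pfkm had 3.72 (NS21), 4.0 (NS195R) and 3.24 (NSEB5-2C), against 4.86 in Mixture, with a mean ratio of -1.21 (SE 0.48, limma adjusted p = 0.205). Their ranges between the lines were 0.89 and 0.76 log2. Pfkp ranged more widely, with 1.40 (NS21), -2.96 (NS195R) and -0.19 (NSEB5-2C), against 0.98 in Mixture. Its 3 probes gave mean ratios of -1.56, 0.38 and -0.31, so its direction against Mixture depends on the probe, while all 3 were highest in NS21 and lowest in NS195R.

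The Pfkfb enzymes make or remove fructose 2,6-bisphosphate, the activator of phosphofructokinase. Pfkfb1, known from liver and muscle, had levels of 1.57 (NS21), -1.15 (NS195R) and 0.71 (NSEB5-2C), against -0.20 in Mixture. Pfkfb2, known from heart, had -2.35 (NS21), -1.82 (NS195R) and -3.18 (NSEB5-2C), against -2.03 in Mixture. Pfkfb3, the form with the highest kinase activity, had 0.12 (NS21), 1.01 (NS195R) and 0.30 (NSEB5-2C), against 1.85 in Mixture. NS195R was thus the lowest line for Pfkfb1 and the highest for Pfkfb2 and Pfkfb3. Pfkfb4 had 0.03 (NS21), 0.48 (NS195R) and 0.61 (NSEB5-2C), against 0.85 in Mixture. No Pfkfb gene passed the test, and with median scaling the ratios of Pfkfb2 (-0.42) and Pfkfb4 (-0.47) turned to 0.33 and 0.28.

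Aldolase splits the six-carbon sugar. Aldoa, the muscle and general form, had 8.15 (NS21), 7.56 (NS195R) and 7.96 (NSEB5-2C), against 8.11 in Mixture, and its ratio of -0.22 turned to 0.53 with median scaling. Aldoc, the brain form, which marks astrocytes and Purkinje cells, had 1.60 (NS21), 4.19 (NS195R) and 1.63 (NSEB5-2C), against 0.38 in Mixture. All 3 lines were above Mixture on this probe, and NS195R stood 5.96-fold above the mean of the other lines. On the second Aldoc probe NS195R was again the highest at a ratio of 3.70, while NS21 lay below Mixture at -0.36. Tpi1, triose phosphate isomerase, lay between 5.22 and 6.21 in the lines, against 5.62 in Mixture.

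The ATP-yielding phosphoglycerate kinase Pgk1 lay between 6.01 and 6.53 in the lines, against 5.31 in Mixture (log2 ratio 1.01, SE 0.42, limma adjusted p = 0.216). Named for Gapdh-like copies were 11 probes, which lie outside the rule and were looked up after other values were seen, and they had ratios between -0.01 and 0.69. The mutase Pgam1, the general form, had 6.35 (NS21), 5.81 (NS195R) and 6.76 (NSEB5-2C), against 4.90 in Mixture (log2 ratio 1.41, SE 0.54, limma adjusted p = 0.196). Its muscle counterpart Pgam2 had 5.09 (NS21), -4.77 (NS195R) and -4.15 (NSEB5-2C), against 5.12 in Mixture. NS21 thus held nearly the Mixture level, while NS195R and NSEB5-2C had log2 ratios of -9.90 and -9.28. Bpgm, which makes the 2,3-bisphosphoglycerate of red cells, had 0.71 (NS21), 1.14 (NS195R) and 2.97 (NSEB5-2C), against 2.56 in Mixture, so that NSEB5-2C alone lay above Mixture.

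Enolase, which makes phosphoenolpyruvate, split widely between its isoenzymes. Eno1, the general form, had 2.61 (NS21), 2.37 (NS195R) and 2.40 (NSEB5-2C), against 0.36 in Mixture. The lines averaged 2.46 ± 0.13 (SD, n = 3), 4.28-fold above Mixture, with a limma adjusted p of 0.0631 that misses the threshold. Eno2, the neuronal form, had -0.33 (NS21), -2.41 (NS195R) and -1.52 (NSEB5-2C), against -2.44 in Mixture. Eno3, the muscle form, had 2.53 (NS21), -0.30 (NS195R) and 3.50 (NSEB5-2C), against 6.08 in Mixture (log2 ratio -4.16, SE 1.80, limma adjusted p = 0.229). All lines lay above Mixture for Eno1 and below it for Eno3, while for Eno2 NS195R had a ratio of 0.03, and of -0.03 on the second probe.

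Pyruvate kinase makes pyruvate. Pkm2, the older name of the gene for the M1 and M2 splice forms, which the array name does not tell apart, had 5.66 (NS21), 5.45 (NS195R) and 6.19 (NSEB5-2C), against 3.34 in Mixture. The lines averaged 5.77 ± 0.38 (SD, n = 3), 5.40-fold above Mixture with an SE of 0.48 log2, and the limma adjusted p was 0.0809. Pklr, the liver and red cell gene, was well above background only in NSEB5-2C among the lines, at -4.16, with -6.90 read in NS21 and -5.21 in NS195R, against -1.60 in Mixture.

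Lactate dehydrogenase interconverts pyruvate and lactate. Ldha, the muscle-type subunit, had 6.24 (NS21), 6.57 (NS195R) and 6.49 (NSEB5-2C), against 6.07 in Mixture. Ldhb, the heart-type subunit, had 4.86 (NS21), 5.08 (NS195R) and 3.19 (NSEB5-2C), against 7.25 in Mixture, 7.34-fold lower in the mean (log2 ratio -2.88, SE 0.98, limma adjusted p = 0.168). Ldha kept within 0.32 log2 between the lines, whereas Ldhb was lowest in NSEB5-2C.

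Lactate leaves the cell through monocarboxylate transporters. Slc16a1 (MCT1), which carries lactate in both directions, had 4.65 (NS21), 1.94 (NS195R) and 3.26 (NSEB5-2C), against 2.98 in Mixture. Slc16a3 (MCT4), the exporter of strongly glycolytic cells, had 4.2 (NS21), -1.42 (NS195R) and 3.1 (NSEB5-2C), against 2.03 in Mixture. For both genes NS21 was highest, NS195R was lowest and below Mixture, and the mean ratios of 0.30 (SE 1.26) and -0.07 (SE 2.68) lie inside these wide ranges.

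Pyruvate dehydrogenase kinases hold pyruvate back from oxidation. Pdk4, induced by fasting in heart, muscle and liver, had -1.84 (NS21), -3.76 (NS195R) and -3.58 (NSEB5-2C), against 4.18 in Mixture. It was the 1 called gene measured on all 4 arrays, 151-fold lower in the lines (log2 ratio -7.24, SE 1.01, limma adjusted p = 0.0428), and its limma adjusted p ran between 0.0106 and 0.145 over the alternatives. It lost the call when dim probes were not filtered, when only genes measured on every array were tested, and when any line was left out. Pdk2, a widely expressed kinase, had -3.76 (NS21), -2.58 (NS195R) and -3.78 (NSEB5-2C), against -0.26 in Mixture (log2 ratio -3.11, SE 0.70, limma adjusted p = 0.0971). The hypoxia-induced Pdk1 had -1.75 (NS21), -0.35 (NS195R) and 0.52 (NSEB5-2C), against 2.11 in Mixture, a mean ratio of -2.64 on this probe and -0.91 on the other. On the other probe NSEB5-2C lay above Mixture, with a log2 ratio of 0.75. Pdk3 had 0.00 (NS21), 0.55 (NS195R) and 1.39 (NSEB5-2C), against -0.34 in Mixture. All lines lay below Mixture for Pdk2 and Pdk4, and above it for Pdk3.

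Gluconeogenesis genes gave the 3 lowest mean ratios of the 39. Pck1, which makes phosphoenolpyruvate in liver and kidney, read -6.79 (NS21), -6.90 (NS195R) and -6.93 (NSEB5-2C), not well above background, against 5.77 in Mixture, and was at least 1927-fold lower in the lines (limma adjusted p = 0.00846). G6pc, which releases free glucose from liver, read -5.56 (NS21), -6.13 (NS195R) and -5.21 (NSEB5-2C), also not well above background, against 3.81 in Mixture, and was at least 497-fold lower (limma adjusted p = 0.00932). The fructose bisphosphatases were not uniform. Fbp1, the liver form, had -3.49 in NS21 and 0.09 in NS195R and read -7.51, not well above background, in NSEB5-2C, against 6.87 in Mixture (limma adjusted p = 0.157). Fbp2, the muscle form, had 1.07 in NS21, above the -1.01 of Mixture, while NS195R at -6.03 and NSEB5-2C at -7.34 were not well above background.

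Within a step, the isoenzyme with the highest mean ratio could be set against that with the lowest, since a difference of ratios does not depend on the factor by which each array is scaled. The differences were 6.26 log2 for Eno1 minus Eno3, 7.81 for Pgam1 minus Pgam2, 8.23 for Pdk3 minus Pdk4, 3.24 for Ldha minus Ldhb and 2.32 for Aldoc minus Aldoa. On the probes kept, each had the same sign in all 3 lines. The second Aldoc probe had a ratio of -0.36 in NS21, against 0.04 for Aldoa, so that sign depends on the probe. The difference was 1.92 for Pfkl minus Pfkp, where the Pfkp probes disagreed, and 1.95 for Pfkfb1 minus Pfkfb3, of opposite sign in NS195R. Slc16a1 minus Slc16a3 was 0.37 in the mean, with 2.40 in NS195R but -0.50 in NS21 and -0.80 in NSEB5-2C. The genes with the highest and the lowest ratio of a step were picked from these values, so the differences are given without a test.

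**Figure D2:**
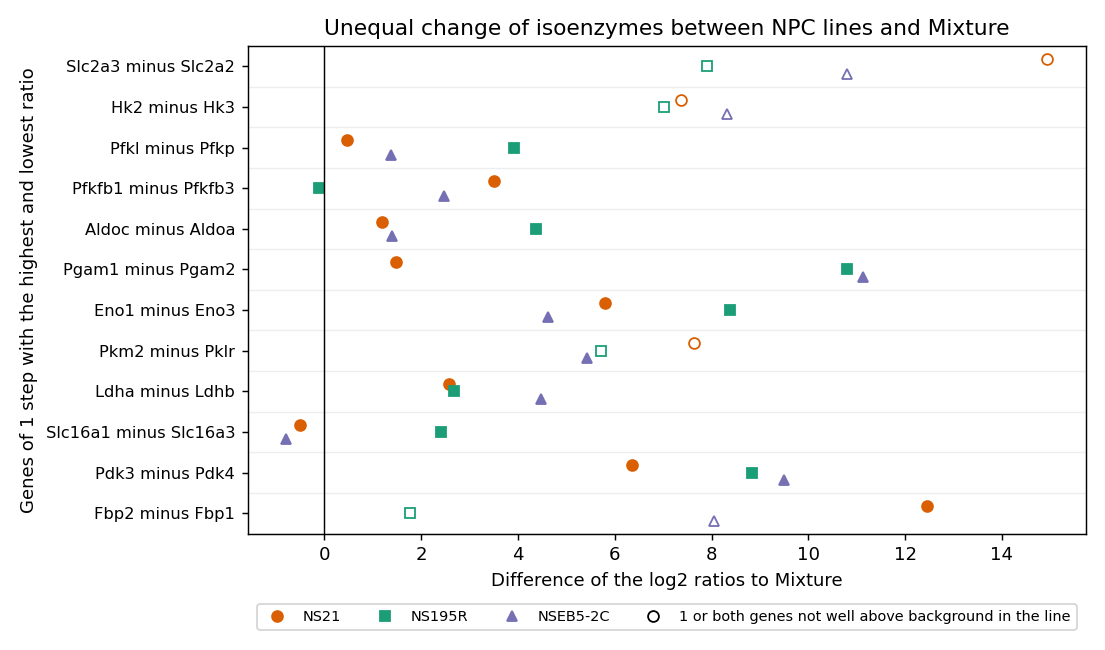
Difference between the log2 ratios to Mixture of a pair of genes of the same step (horizontal axis), in NS21 (circles), NS195R (squares) and NSEB5-2C (triangles), with open symbols where at least 1 gene of the pair was not well above background in that line. Eno1 minus Eno3, Ldha minus Ldhb and Pdk3 minus Pdk4 lie above 0 in every line, and Pgam1 minus Pgam2 is far smaller in NS21 than in the other lines.

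Between the NPC lines, the glycolysis genes lay farther apart than all genes tested, by their medians. The median range across the lines came to 1.36 log2 for the 39 genes and 1.06 for all genes tested, and to 1.37 and 0.83 for those measured on every array. The narrowest ranges, from 0.24 to 0.59 log2, belonged to Eno1, Ldha, Pgk1, Pfkfb4 and Aldoa among those measured on every array. Repeated spots of Gpi1, Pgk1 and Slc2a4 within an array had SDs from 0.0225 to 0.283 log2. Each line had 1 array, so differences between lines are sizes without a test.

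NS21 was the line with the most high glycolysis genes. At least 2-fold above both other lines were 9 of 39, or 23.1%, beside 8.88% of all genes tested. They were Slc2a3, Slc2a4, Pfkp, Pgam2, Eno2, Slc16a1, Slc16a3, Pdk4 and Fbp2. With normexp, and also with median scaling, the NS21 count was 7. Pgam2 stood 751-fold above the mean of the other lines, Fbp2 at least 76.7-fold, Slc2a3 51.9-fold and Slc16a3 10.2-fold. The low NS195R values enter that mean. Above NSEB5-2C, the nearest line, Slc2a3 stood 18.9-fold and Slc16a3 2.14-fold. The 9 span uptake, phosphofructokinase, the muscle mutase, neuronal enolase and lactate export. They also hold Pdk4, a kinase that holds pyruvate back from oxidation, and Fbp2 of gluconeogenesis. As far below both were 2, or 5.13%, beside 5.87% of all genes, which were Pdk1 (3.58-fold) and Pklr, not well above background there. On the second Pdk1 probe NS21 at -2.38 and NS195R at -2.17 were close together, so the 2-fold gap is that of 1 probe.

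Pgam2 and Fbp2 are muscle genes, and skeletal muscle markers were read beside them. Of 15 such markers, 8 were well above background in NS21, with 7 in NS195R and 5 in NSEB5-2C, against 15 in Mixture. Markers that exceeded both other lines by at least 2-fold numbered 5 (NS21), 3 (NS195R) and 0 (NSEB5-2C). All genes tested had 8.88%, 12.6% and 6.93%. Markers as far below both numbered 1 (NS21), 2 (NS195R) and 3 (NSEB5-2C), beside 5.87%, 7.37% and 9.34% of all genes. The summed linear level of the 15 markers was 2.90 (NS21), 9.22 (NS195R) and 0.855 (NSEB5-2C), against 623 in Mixture. The defining factors Myod1 and Myog were not well above background in any NPC line. Of 9 tested pluripotent cell markers, 6 were well above background in NS21, with 5 in NS195R and 4 in NSEB5-2C, against 4 in Mixture, and the part of these cells in the result was not tested.

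NS195R was the line with the most low genes. At least 2-fold below both other lines were 7 of 39, or 17.9%, beside 7.37% of all genes tested: Slc2a1, Slc2a3, Pfkp, Pfkfb1, Eno3, Slc16a1 and Slc16a3. The lactate exporter Slc16a3 was 33.5-fold below the mean of the other lines, Slc2a3 32.9-fold, Pfkp 11.8-fold, Eno3 9.97-fold and Slc2a1 6.41-fold. Below NSEB5-2C, the nearest line, Slc16a3 lay 23.0-fold and Slc2a3 7.57-fold. Of these 7, Slc2a3, Pfkp, Slc16a1 and Slc16a3 were also among the 9 high in NS21, so that the same gene counts toward both lines. As far above both others were 3, or 7.69%, beside 12.6% of all genes: Aldoc, Pdk2 (2.27-fold) and Fbp1, the last at least 21.5-fold. NSEB5-2C had 2 such higher genes, Bpgm (4.11-fold) and Pklr, or 5.13% beside 6.93%, and 3 lower, Ldhb (3.44-fold), Fbp1 and Fbp2, or 7.69% beside 9.34%. Once readings not well above background were set to their array's lowest well-measured signal, Pklr no longer counted for NS21 or NSEB5-2C and Fbp2 no longer for NSEB5-2C, which left 1 lower in NS21 and 1 higher and 2 lower in NSEB5-2C. At the stricter size of 4-fold, NS21 had 3 higher (background 4.14%) and 0 lower (2.56%), NS195R 2 higher (7.22%) and 5 lower (3.41%), and NSEB5-2C 0 higher (3.32%) and 1 lower (3.12%).

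By line, the median log2 ratio to Mixture over the 39 genes was -0.03 (NS21), -0.95 (NS195R) and -0.24 (NSEB5-2C), where all genes tested had 0.40, 0.43 and 0.23. At least 2-fold above Mixture were 12 (NS21), 3 (NS195R) and 9 (NSEB5-2C), and as far below were 15, 18 and 18 of the 39. The shares of all genes were not counted by line. For the mean of the lines they were 33.2% above and 27.9% below, so these counts alone do not set a line apart. The strain label 129/Sv belongs to NS195R alone, so line and strain cannot be told apart.

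**Figure D3:**
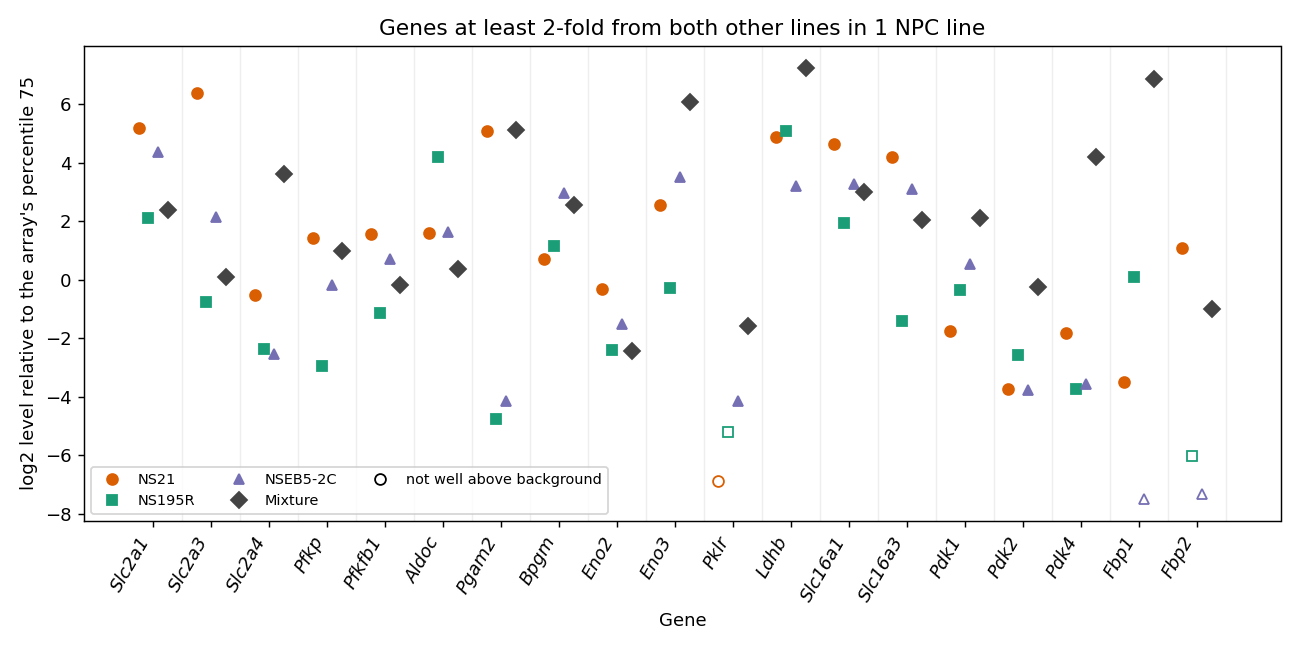
Log2 level relative to the 75 percentile of the array (vertical axis) of glycolysis genes that lay at least 2-fold from both other lines in some line, in NS21, NS195R and NSEB5-2C and in Mixture, with open symbols for values not well above background. Slc2a1, Slc2a3, Pfkp, Slc16a1 and Slc16a3 are highest in NS21 and lowest in NS195R.

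**Figure D4:**
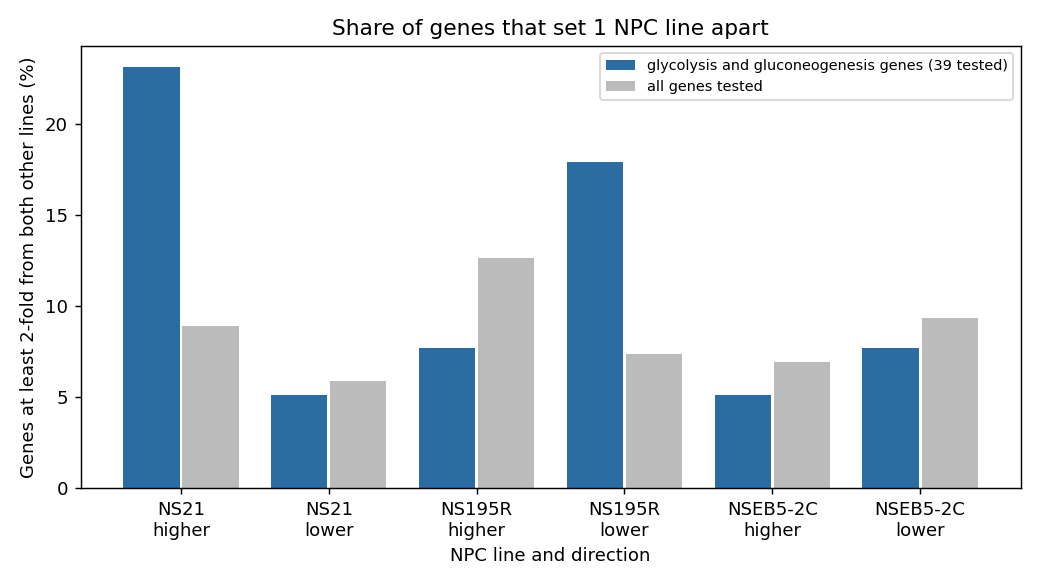
Share of the 39 glycolysis genes and of all 19823 genes tested (percent) that lay at least 2-fold above or below both other lines, for each NPC line. The glycolysis genes reach 23.1% above in NS21 and 17.9% below in NS195R, beside 8.88% and 7.37% of all genes.

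For 11 of the genes, more than 1 probe was well above background on every array. All 11 had the same highest line by every probe, 10 had the same sign against Mixture, Pfkp being the exception, and 7 had ratios within 0.5 log2 of each other. For these 11, which line is high was thus read alike by different probes, whereas the size of a ratio to Mixture often was not. Many genes that set a line apart could not be checked so. Slc2a4, Slc16a3, Pdk4, Pgam2 and Fbp2, high in NS21, had 1 probe each. So had Slc2a1, Pfkfb1 and Eno3, low in NS195R. Several glycolysis enzymes have near-identical processed copies in the mouse genome, and whether the probes read some of them was not tested.

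The promoters below are examples that hold the motifs marked, from genes that differed between lines in the same direction: Slc2a1 and Slc16a3, low in NS195R, and the muscle genes Pgam2 and Fbp2, high in NS21. Each is the 250 bases before the annotated start, 5′ to 3′ on the gene's strand, from RefSeq (GRCm38.p6). Capitals mark ACGTG, the core of the site that hypoxia-inducible factors bind, and CAGCTG, an E-box letter sequence that muscle regulatory factors bind, searched on both strands. CACGTG, the E-box that carbohydrate response and Myc factors bind, holds ACGTG on both strands.

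Slc2a1, chr4:119108495-119108744, plus strand: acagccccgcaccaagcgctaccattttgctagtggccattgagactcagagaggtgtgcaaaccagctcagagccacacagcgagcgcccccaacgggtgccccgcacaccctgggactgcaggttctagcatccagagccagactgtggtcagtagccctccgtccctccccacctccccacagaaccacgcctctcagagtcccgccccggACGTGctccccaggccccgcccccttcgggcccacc
Slc16a3, chr11:120948817-120949066, plus strand: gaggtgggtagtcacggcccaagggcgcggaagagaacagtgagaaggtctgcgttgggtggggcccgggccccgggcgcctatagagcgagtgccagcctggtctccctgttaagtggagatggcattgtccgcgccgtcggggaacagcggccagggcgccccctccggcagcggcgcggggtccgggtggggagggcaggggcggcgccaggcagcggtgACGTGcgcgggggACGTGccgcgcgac
Pgam2, chr11:5803797-5804046, minus strand: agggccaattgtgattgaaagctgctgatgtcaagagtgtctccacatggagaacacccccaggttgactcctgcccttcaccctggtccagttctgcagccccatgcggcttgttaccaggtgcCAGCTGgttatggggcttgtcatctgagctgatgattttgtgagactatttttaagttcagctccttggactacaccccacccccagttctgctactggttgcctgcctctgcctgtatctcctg
Fbp2, chr13:62858401-62858650, minus strand: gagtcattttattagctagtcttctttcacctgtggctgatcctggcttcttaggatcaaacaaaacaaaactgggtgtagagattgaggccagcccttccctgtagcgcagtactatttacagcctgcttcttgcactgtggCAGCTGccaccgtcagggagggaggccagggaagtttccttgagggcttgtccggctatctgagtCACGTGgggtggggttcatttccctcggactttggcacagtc

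The Slc2a1 window holds ACGTG 1 time and the Slc16a3 window 2 times, while the Pgam2 and Fbp2 windows hold CAGCTG 1 time each and the Fbp2 window also holds CACGTG. Of the 40 genes, 38 had 58 promoters in the table, of which 34.5% held ACGTG, beside 16.6% of all 32851 promoters. CACGTG was in 12.1% of them and in 6.02% of all promoters, and CAGCTG in 15.5% and 13%. These shares were counted on the same 250 bases before each start. Among the 7 genes low in NS195R, 6 had 9 promoters, of which 33.3% held ACGTG, near the 34.5% of the whole set, and those of Pfkp, Pfkfb1 and Eno3 did not hold it. Among the 9 genes high in NS21, 7 had 7 promoters, of which 28.6% held CAGCTG, those of Pgam2 and Fbp2. A match is letters in a window, and whether a factor binds there was not measured. Hif1a, a hypoxia-inducible factor subunit chosen after its value was seen, had levels of 1.85 (NS21), 1.58 (NS195R) and 1.85 (NSEB5-2C), against 0.31 in Mixture (limma adjusted p = 0.112).

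Other genes around the pathway came from lists also drawn up with earlier results known. Of 111 tested, 11 were lower, or 9.91%, beside 8.91% of all genes, and 1 was higher, or 0.901%, beside 0.938%. Among 18 tested genes of glucose and hexose entry 0 were higher and 3 lower, among them the kidney glucose transporter Slc5a2, at least 314-fold lower, and the intestinal transporter Slc5a1. Of 16 other glycolysis and gluconeogenesis enzymes 0 were higher and 2 lower, among them Ldhd, at least 110-fold. Glycogen metabolism had 2 of 12 lower, the liver synthase Gys2, at least 178-fold, and the liver phosphorylase Pygl, and 0 higher.

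Among regulators of these genes 4 of 17 were lower, among them the liver factors Hnf4a and Mlxipl and the muscle factor Myod1, and 0 higher. The serine and hexosamine branches, which draw on glycolytic intermediates, had 1 of 10 higher and 0 lower. It was Psat1, an enzyme of serine synthesis, with 4.04 (NS21), 4.36 (NS195R) and 4.5 (NSEB5-2C), against 1.01 in Mixture (limma adjusted p = 0.0320, log2 ratio 3.29, SE 0.40), above Mixture in all 3 lines. With limma 0 genes passed among 11 of pyruvate oxidation, 9 of the pentose phosphate pathway and 18 hypoxia factors and targets. Unadjusted p under 0.05 was reached by 1 lower pyruvate oxidation gene, by 1 higher and 1 lower pentose phosphate gene, and by 3 higher and 3 lower hypoxia genes. Of all genes tested, 15.6% were higher and 15.4% lower at that unadjusted p. The extremes of these lists were the pyruvate carrier Mpc1 (log2 ratio -2.64) and Idh3a (0.37), H6pd (-3.06) and Pgd (1.58) of the pentose phosphate pathway, and the hypoxia targets Ndrg1 (-4.2) and Kdm3a (1.67). The medians of the 8 lists ran between -2.69 for regulators and 1.08 for the serine and hexosamine branches, beside 0.44 for all genes tested.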

How the data were processed

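Spot intensity values were deposited by the authors as Agilent Feature Extraction 9.5.3.1 output, background-subtracted per the file headers, and the deposited value table held the same intensity values. Processed signals were taken to log2 minus each array's percentile 75. Outlier-flagged spots were left out, repeated spots averaged, and the probe with the highest mean kept per gene. The 19823 genes with signal well above background on 1 array or more were tested with limma 3.58.1 in R 4.3.3 (two-sided, residual df 2). With 1 Mixture array, the fit takes its spread to be that of the lines, and p-values measure only the spread between the lines. All arrays lay on 1 slide from 1 scan, so no batch could be tested. For a gene not well above background in any line, a fold is a bound ("at least"), against the lowest signal well above background on each array or the probe's own, if higher. Lines were compared by size, at least 2-fold from both others. The fit was tested on simulated data. Members, lists and alternatives were chosen with earlier results of these data known. Genes were named by test, by 4-fold from Mixture, by 2-fold between lines, or by sharing a step with such a gene. Some genes counted in the other pathway lists are not reported here by name.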

Additional observations from a re-analysis of the deposited data

Results flagged for a closer look

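For 3 genes an NPC line exceeded Mixture by 2-fold or more while another fell short of it by as much, a difference between lines that was not tested, with 1 array a line. For the lactate exporter Slc16a3 the log2 ratio was 2.16 in NS21 and -3.45 in NS195R, a range of 5.62. For the lactate transporter Slc16a1 it was 1.66 in NS21 and -1.05 in NS195R, a range of 2.71. Its 3 probes gave the same order of lines, but the other two had -0.88 and -0.77 in NS195R, less than 2-fold below Mixture. For the muscle fructose bisphosphatase Fbp2 it was 2.08 in NS21 and, with dim values raised, -4.18 in NSEB5-2C, a range of at least 6.26, and NS21 was the 1 line with signal well above background.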

How the results depend on the processing

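Of the ratios of the 39 genes under the alternatives, 345 kept direction and call, 17 lost a call, 8 gained one and 13 turned. With normexp, 2 genes were higher and 8 lower, 973 of all genes higher, 7 other pathway genes higher and 17 lower, and counts between lines were 0 lower in NS21 and 1 higher and 1 lower in NSEB5-2C. All genes higher numbered 586 with quantile normalization. Median scaling gave a median of 0.28 and 6 genes higher in NSEB5-2C, beside 7 in NS21. Without a filter 1 gene, 524 of all genes and 2 pathway genes were higher. With an intensity trend these were 2, 472 and 2. With genes measured on every array alone, where dim genes are left out, all calls numbered 0, with 1 lower in NS21 and 1 higher and 1 lower in NSEB5-2C. The mean of probes gave 1 lower in NS21 and 4 higher in NSEB5-2C. Raising dim values, chosen after seeing the data, gave 1 and 1, and 2 lower in NSEB5-2C. At 4-fold, NS21 had 3 higher and 0 lower and NSEB5-2C 0 higher and 1 lower. Without any 1 line, each count of calls ranged from 0 to 0, with fewer arrays in the fit. Ratios that turned were Slc16a3 (0.0823 with normexp, 0.68 with median scaling, -1.19 to 1.62 leaving out a line), Pfkfb2 (0.13 with quantile, 0.33 with median scaling), Slc16a1 (-0.00695 with quantile, -0.39 to 0.97 leaving out a line), Hk1 (0.20), Hk2 (0.44), Pfkfb4 (0.28) and Aldoa (0.53) with median scaling, and, leaving out a line, Pfkfb1 (-0.0211 to 1.34), Tpi1 (-0.0382 to 0.46) and Slc16a1 minus Slc16a3 (-0.65 to 0.95). Otherwise the cause was not tested. No paired analysis was possible because the groups share 1 replicate number, given in accession order. Signal over background limits the ratios of genes not well above background to bounds.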

Other observations

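Some genes next to the pathway, chosen after their values were seen, differed widely between the lines. G6pc3, the widely expressed glucose 6-phosphatase, was not well above background in NS21 and lay at least 154-fold below the mean of the other lines there, with 2.23 in NS195R and 2.20 in NSEB5-2C, against 1.83 in Mixture. Ppargc1a, a coactivator of mitochondrial and gluconeogenic genes, was well above background only in NS195R among the lines, at least 87.4-fold above the others. Gpd1, which links glycolysis to glycerol phosphate, stood 38.6-fold above the mean of the other lines in NS195R. Txnip, a glucose-induced gene that limits glucose uptake, was 7.93-fold higher in NS21.

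Of 18 hypoxia factors and targets outside glycolysis, 4 lay at least 2-fold below both other lines in NS195R, beside 7.37% of all genes tested, and 1 lay as far above, beside 12.6%. P4ha2, a collagen hydroxylase subunit, was 33.5-fold below the mean of the other lines, the oxygen sensor Egln3 12.4-fold, Ndrg1 2.91-fold and the mitophagy gene Bnip3 2.74-fold. The peptide hormone gene Adm went the other way, 6.60-fold above the mean of the other lines in NS195R. It stood 2.24-fold above NSEB5-2C, the nearest line. In NS21, 2 of the list lay at least 2-fold below both others, beside 5.87%, Adm 13-fold and the vessel growth factor Vegfa 4.68-fold. There 1 lay as far above, beside 8.88%, Ankrd37 4.43-fold. In NSEB5-2C, 1 lay as far above, beside 6.93%, and 0 as far below, beside 9.34%. The 1 was P4ha2, 9.74-fold above the mean of the other lines but 2.00-fold above NS21, the nearest line.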
